A study of Mus musculus with 3 samples.

Results

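In cardiac progenitor cells (CPCs), peaks of Isl1, a LIM-homeodomain protein that marks the second heart field, were assigned to many solute carrier genes and lay mostly within 1 kb or beyond 10 kb of a start site. The solute carrier peaks were taken as all peaks of the deposited Isl1 list whose assigned gene symbol begins with Slc and a digit, or with Slco, after identical repeated lines had been counted once. This gave 246 of 14082 distinct peaks, assigned to 165 of the 389 solute carrier genes found among 21031 protein-coding genes. The symbol rule also takes in a few genes that are named after a transporter without being one, such as Slc9a3r2, which encodes a scaffold protein that binds the Slc9a3 exchanger. The series maps Isl1 by ChIP-Seq, which sequences the DNA that an antibody against the protein recovers from fixed chromatin. The cells were differentiated in vitro to day 5 from a mouse embryonic stem cell line, E14 Tg(Nkx2-5-EmGFP), which carries a green fluorescent reporter at the early cardiac gene Nkx2-5. Isl1 was precipitated in 2 replicates, and 1 input of chromatin without precipitation served as the control. All 3 samples came from this 1 line and carried no further change of genotype, and the cells model embryonic progenitors in culture rather than a tissue. The authors joined both replicates into 1 list without heights or read numbers, so no replicate error can be given, the depth is unknown here, and intervals below are 95% Wilson intervals that cover counting error only.

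Solute carriers are membrane proteins that move ions, nutrients and metabolites across the plasma membrane or the membranes of organelles, either down a gradient or coupled to the gradient of another solute. They are grouped by sequence into numbered families, many of which share a kind of substrate. In heart muscle they include the sodium-calcium exchanger that removes calcium after each beat, the carriers for glucose, lactate and fatty acids that feed contraction, and the carriers of the inner mitochondrial membrane. Many others are known for their work in kidney, liver, gut or neurons.

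The peaks nearest to a transcription start site (TSS) among the heart transporters show what a promoter peak of these genes looks like, so stretches of up to 150 bases just upstream of the TSS are given for the 4 that had an exon-free stretch. Each stretch lies inside its peak in mm9, reads 5′ to 3′ on the plus strand, which is the strand of all 4 genes, and has the strings GGGCGG (the GC box) and CCAAT in capitals, on either strand. Slc16a3, which exports lactate, had its peak centre 18 bp upstream of the TSS, and the stretch is chr11:120810231-120810366.
Slc16a3: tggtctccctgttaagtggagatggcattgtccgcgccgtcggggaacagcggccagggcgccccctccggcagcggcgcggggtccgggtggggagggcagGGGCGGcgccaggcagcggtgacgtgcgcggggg
Slc20a1, a sodium-phosphate cotransporter, had its peak centre 40 bp downstream of the TSS, and the stretch is chr2:129024350-129024499.
Slc20a1: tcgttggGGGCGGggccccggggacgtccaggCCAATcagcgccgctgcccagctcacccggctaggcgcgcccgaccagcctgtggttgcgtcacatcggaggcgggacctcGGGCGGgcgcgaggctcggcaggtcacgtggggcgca
Slc6a6, the taurine transporter, had its peak centre 102 bp downstream, and the stretch is chr6:91633911-91634060.
Slc6a6: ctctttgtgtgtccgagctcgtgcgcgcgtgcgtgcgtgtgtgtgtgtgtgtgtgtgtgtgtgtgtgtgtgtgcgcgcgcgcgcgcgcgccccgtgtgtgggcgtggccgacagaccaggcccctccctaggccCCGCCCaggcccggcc
Slc16a1, which carries lactate and other monocarboxylates, had its peak centre 122 bp downstream, and the stretch is chr3:104442441-104442590.
Slc16a1: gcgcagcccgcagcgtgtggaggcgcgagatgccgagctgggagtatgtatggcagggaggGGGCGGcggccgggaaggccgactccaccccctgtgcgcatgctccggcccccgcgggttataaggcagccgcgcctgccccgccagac
The 4 stretches had a GC content from 72% to 76.5% and held 17 to 20 CpG dinucleotides. Each held GGGCGG, with 2 matches in Slc20a1 and 1 in each of the others, and the Slc20a1 stretch alone held CCAAT. In the 150 bases before the TSS, GGGCGG was present in 39.2% and CCAAT in 26.5% of 20488 RefSeq promoters of protein-coding genes (GRCm38), with or without a peak. In the 115 promoters listed for 83 of the 102 solute carrier genes with a peak within 1 kb, the shares were 61.7% and 21.7%. Promoters of other genes with a peak were not counted separately here. These 115 promoters had a mean GC content of 66.9% and a median of 12 CpG, against 58.0% and 7 over the 20488. The 4 stretches thus lay above the average of their own group. Slc20a2, whose peak centre lay 81 bp from the TSS, had no exon-free stretch of 60 bases there and is not shown.

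Far from the TSS the peaks looked different, and 2 central stretches of 200 bp are given to show it. Both were chosen after their values were seen, because each carries, in capitals, a stretch of 31 bases (31-mer) that recurs among the distal solute carrier peaks. One lies between genes and is listed at 54121 bp of Slc8a1, the sodium-calcium exchanger of heart muscle, but at -34659 bp of the nearest GENCODE TSS of that gene, so its side of the TSS depends on the annotation (chr17:82083507-82083706, plus strand).
Slc8a1: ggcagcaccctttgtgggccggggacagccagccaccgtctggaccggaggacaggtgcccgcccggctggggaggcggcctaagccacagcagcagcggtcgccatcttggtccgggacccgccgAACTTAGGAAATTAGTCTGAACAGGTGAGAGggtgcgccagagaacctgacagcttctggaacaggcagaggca
The other is listed 94039 bp upstream of Slc30a5, a zinc transporter of the secretory pathway (chr13:101697322-101697521, plus strand). In GENCODE its nearest protein-coding TSS was that of Gm10257, 19454 bp away.
Slc30a5: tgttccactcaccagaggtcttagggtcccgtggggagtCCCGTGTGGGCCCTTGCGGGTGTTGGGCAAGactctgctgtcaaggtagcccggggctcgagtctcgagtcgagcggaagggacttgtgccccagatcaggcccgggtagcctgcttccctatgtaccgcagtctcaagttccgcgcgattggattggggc
The capitals of the Slc8a1 stretch were found in the centres of 15 solute carrier peaks at 13 genes and of 1038 of all 14082 peaks (7.37%). The capitals of the Slc30a5 stretch were found in 9 solute carrier peaks at 9 genes and in 312 of all peaks (2.22%).

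Peaks were found at 42.4% of solute carrier genes (165 of 389, interval 37.6% to 47.4%), against 39.0% of all protein-coding genes, which lies inside the interval. A peak within 1 kb of the TSS, called a promoter peak here, was present at 102 of 389 genes, or 26.2% (22.1% to 30.8%), against 24.2% of all genes. For 47 genes, or 12.1% (9.21% to 15.7%), every peak lay beyond 10 kb, against 10.7% of all genes. Of the 165 genes, 114 had 1 peak, 35 had 2 and 16 had at least 3. The 16 genes with at least 3 peaks made up 4.11% of the family (2.55% to 6.58%), against 4.15% of all genes. All 4 shares lay close to the background of the whole genome.

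Of the 246 peaks, 103 lay within 1 kb of the TSS (41.9%, 35.9% to 48.1%), 23 between 1 and 10 kb (9.35%) and 120 beyond 10 kb (48.8%, 42.6% to 55.0%). Over all 14082 peaks these shares were 38.5%, 10.5% and 51.1%. The median distance from the TSS was 164 bp for the promoter peaks and 60672.5 bp for those beyond 10 kb, against 178 bp and 82080 bp over all peaks. Promoter peaks sat mostly just downstream of the TSS, with 15 of 103 centred upstream of it (14.6%, against 19.0% of all promoter peaks). At 25 genes a promoter peak was accompanied by another peak beyond 10 kb. The peaks were spread over 20 of 21 chromosomes, with 3 on the X chromosome, and none of the 246 came from a repeated line, against 78 of all 14082.

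**Figure D1:**
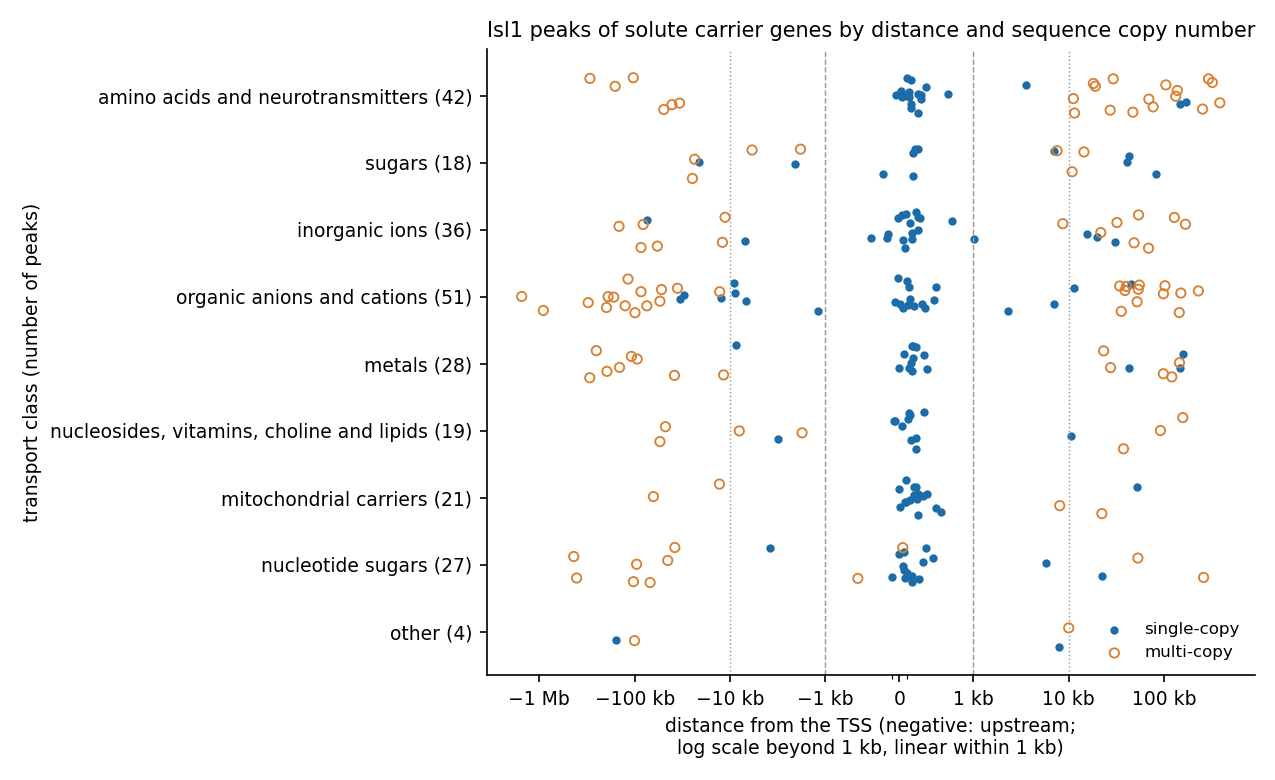
Signed distance of each of the 246 peaks from the TSS of its gene (horizontal axis, negative upstream, log scale beyond 1 kb), with 1 row per transport class. Filled points are single-copy and open points multi-copy peaks, dashed and dotted lines mark 1 kb and 10 kb, and 98 of the 120 points beyond 10 kb are open against 2 of the 103 within 1 kb.

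A peak was called multi-copy where the 31-mers of its central 200 bp had a median of at least 2 copies in the genome. This was the case for 107 of 246 solute carrier peaks (43.5%, 37.4% to 49.7%), against 46.5% of all peaks. With stretches of 75 bases in place of 31 the share was 24.0% (59 of 246), against 28.4% of all peaks, and it was 47.5% beyond 10 kb (57 of 120), against 50.9% of all distal peaks. With 31-mers the share was 1.94% within 1 kb (2 of 103), 30.4% between 1 and 10 kb (7 of 23) and 81.7% beyond 10 kb (98 of 120, 73.8% to 87.6%), and the last value was 81.2% over all distal peaks. The 2 multi-copy promoter peaks belonged to Slc35e3, with a median of 2 copies, and Slc35f4, with 1069. At 38 of 165 genes every peak was multi-copy (23.0%, against 26.5% of all genes with a peak). With single-copy peaks alone, 127 genes kept a peak, which is 32.6% of the solute carrier genes (28.2% to 37.5%) against 28.7% of all protein-coding genes. Of the 139 single-copy peaks, 72.7% were promoter peaks and 15.8% lay beyond 10 kb, against 70.0% and 18.0% of all single-copy peaks. How reads that match many places were placed bears on every multi-copy peak, and its part in these counts was not tested.

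Many of the peaks also shared sequence with one another. In 42 centres (17.1%, against 15.9% of all peaks) a run of at least 31 bases was a tandem repeat of units of up to 6 bases, and 33 of these lay beyond 10 kb and 1 within 1 kb. With such runs set aside, 88 of 246 centres had at least 1 31-mer in common with another solute carrier peak, and they formed 9 linked groups. The linking was counted among the solute carrier peaks alone, so no share over all peaks stands beside it. The 31-mers shown above lay in 15 and 9 of the 246 peaks and in 7.37% and 2.22% of all peaks, so such sharing is not particular to solute carrier genes. The largest group held 25 peaks at 25 genes with a median GC content of 53% and a median observed/expected CpG ratio of 0, and 19 of the 25 also held a short tandem repeat. The next held 19 peaks at 16 genes, among them Slc8a1, Slc4a3, Slc10a2 and Slco3a1, and is the group of the Slc8a1 stretch shown above. Its GC content ran only from 64% to 67%, its median copy number was 2335.5, and 18 of its 19 peaks lay beyond 10 kb. The third, with the Slc30a5 stretch, held 17 peaks at 16 genes, all beyond 10 kb, with a median GC content of 62.5% and a median of 1549.5 copies. Smaller groups of 9 and 6 peaks also lay wholly beyond 10 kb. Slc39a10 had a peak in each of the 5 largest groups. Peaks that share sequence in this way are not independent sites.

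**Figure D2:**
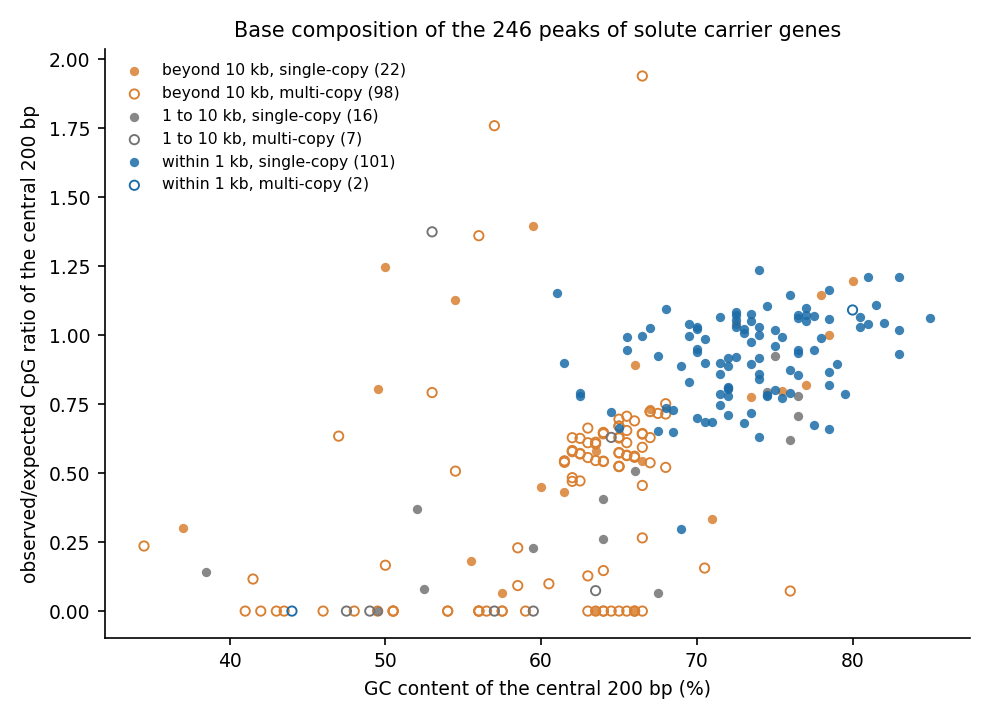
GC content (horizontal axis, percent) against the observed/expected CpG ratio (vertical axis) in the central 200 bp of each of the 246 peaks. Blue promoter peaks sit at a mean GC content of 73.1% with a ratio near 0.912, while many open orange points, which are multi-copy peaks beyond 10 kb, crowd around a GC content of 65.5% and a ratio of 0.565, the medians of the second shared-sequence group, or lie at a ratio of 0.

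Promoter peaks were rich in GC and CpG. Their central GC content was 73.1% ± 5.73 (SD over 103 peaks) and their observed/expected CpG ratio 0.912 ± 0.184, against means of 73.7% and 0.911 over all promoter peaks. Peaks beyond 10 kb had a GC content of 61.4% ± 8.28 and a ratio of 0.456 ± 0.389 (SD over 120 peaks), against 61.6% and 0.483 over all distal peaks. The string GGGCGG was present in the central 200 bp of 57 of 103 promoter peaks (55.3%, 45.7% to 64.6%), against 65.7% of all promoter peaks, and in 98 of all 246 peaks (39.8%, against 42.0%). CCAAT was present in 30 of 246 (12.2%, against 12.9%). The strings TAATGG and TAATTG, which resemble sites of LIM-homeodomain proteins, were present in 1 and 0 of 246 centres, against 0.774% and 0.476% of all peaks. The strings AGATAA and TGATAG, which resemble GATA sites, were present in 4 and 3, against 1.70% and 0.724%. Each string was sought on both strands. A match is a string of letters and not a measured site. The median peak width was 934 bp, with extremes of 269 and 2134 bp, against a median of 947 bp over all peaks.

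By their midpoint, 37 peaks lay in a coding exon, 55 in an untranslated region (UTR), 3 in a noncoding exon, 64 in an intron and 87 between genes of the GENCODE annotation of the same genome. The midpoint lay inside the assigned gene for 140 of 246 (56.9%, 50.7% to 62.9%), against 48.1% of all peaks. In GENCODE, the nearest TSS of a protein-coding gene was that of the assigned gene for 224 of 246 (91.1%, 86.8% to 94.0%), against 78.4% of all peaks. Over all peaks this share is lowered by peaks assigned to noncoding genes, which cannot match a protein-coding TSS, so the comparison is uneven. All 165 solute carrier symbols are those of protein-coding genes. For the other 22 of the 246 peaks the nearest GENCODE TSS was that of another gene. Some of these were still nearer to the assigned gene by the listed distance. The Slc18a3 peak, listed at 9 bp, lay 1068 bp from the TSS of Chat. The Slc14a2 peaks listed at 10017, -100317 and -158398 bp lay 237179, 347513 and 354043 bp from the nearest GENCODE TSS. A peak given to Slc22a12, the urate exchanger of kidney, lay 103 bp from a TSS of Nrxn2, a peak given to the orphan carrier Slc22a23 lay 112 bp from that of the predicted gene Gm8223, and 1 given to Slc39a13 lay 3542 bp upstream of Spi1. In the other direction, 20 peaks with another gene's symbol had a solute carrier TSS as the nearest in GENCODE. Of the 103 promoter peaks, 11 had the TSS of another gene within 1 kb as well (10.7%, against 10.5% of all promoter peaks), for example Slc5a6 with Atraid, Slc20a2 with Smim19 and Slc25a32 with Dcaf13. Distances depend on the transcript chosen: the peaks listed at -74779 bp of Slc24a3 and -20914 bp of Slc45a4 lay 78 bp and 104 bp from a GENCODE TSS of the same gene, and that at -6942 bp of Slc12a5 lay 163 bp from one. The peaks listed at 69478 bp of Slc38a9 and 32139 bp of Slc4a4 lay at -3409 and -15133 bp of the nearest GENCODE TSS of those genes, on its other side.

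The families were placed in 8 transport classes by their main substrate, with each family kept whole. The share of genes with a peak ran from 39.2% for amino acids and neurotransmitters (29 of 74) to 55.6% for nucleotide sugars (15 of 27, the whole Slc35 family), and every class had an interval that included the 39.0% of all genes. The classes also varied in where the peaks lay. Promoter peaks made up 76.2% of the peaks of mitochondrial carriers (16 of 21, 54.9% to 89.4%) but 25.5% of those of carriers for organic anions and cations (13 of 51, 15.5% to 38.9%). Over all peaks the share was 38.5%, which lies inside the latter interval. These intervals treat each peak as separate, although several peaks can share a gene or a repeated sequence. Counted by gene, a promoter peak was present at 34.0% of mitochondrial carriers (22.2% to 48.3%) and 16.7% of organic anion and cation carriers (10.0% to 26.5%), and these intervals overlapped. Both included the 24.2% of all genes. By the share of promoter peaks among peaks, between these classes came nucleotide sugars (55.6%), nucleosides, vitamins, choline and lipids (52.6%), inorganic ions (44.4%), amino acids and neurotransmitters (40.5%), metals (39.3%) and sugars (27.8%). With single-copy peaks alone the mitochondrial carriers stood at 94.1% and the organic anion and cation carriers at 54.2%. Multi-copy peaks were 4 of 21 in the former and 27 of 51 in the latter, and their part in the contrast was not tested. The classes were compared as counts, without a test.

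**Figure D3:**
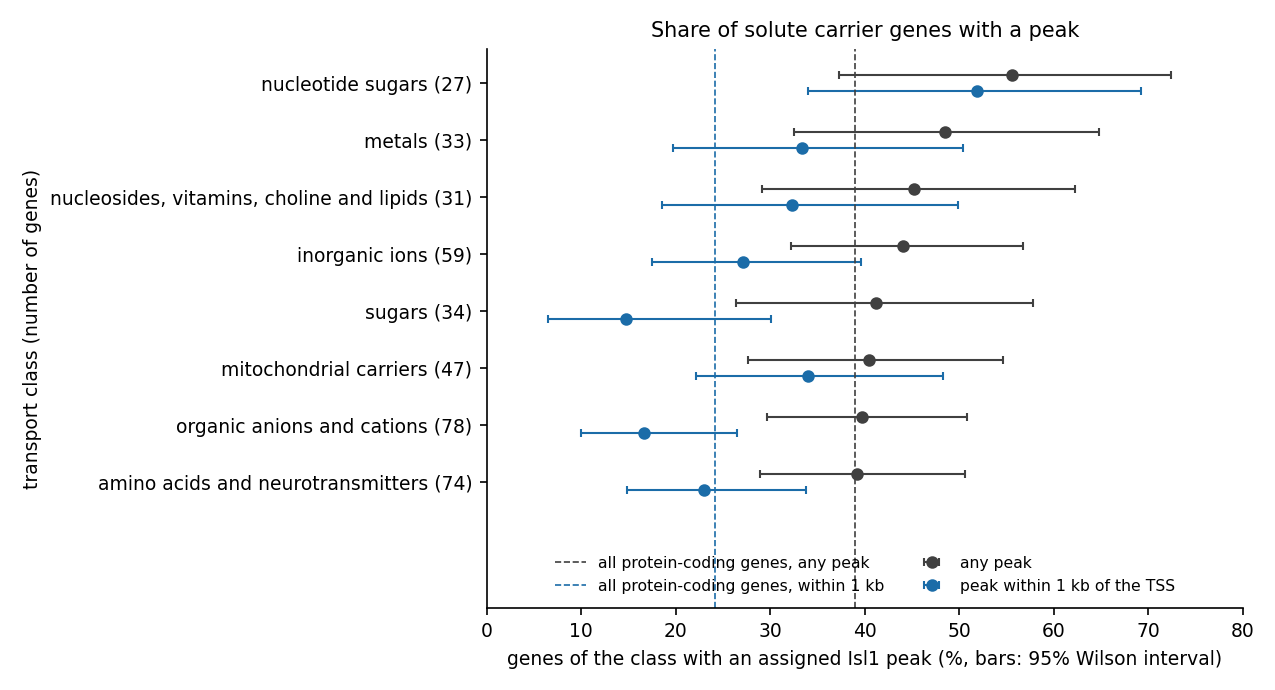
Share of the genes of each transport class with any peak (dark points) or with a peak within 1 kb of the TSS (blue points), in percent with 95% Wilson intervals. Dashed lines give the shares of all protein-coding genes, 39.0% and 24.2%, and the nucleotide sugar class, which is the whole Slc35 family, lies farthest to the right at 55.6% and 51.9%.

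Carriers of the inner mitochondrial membrane (Slc25, 47 genes) exchange metabolites between cytosol and mitochondrion. Peaks were assigned to 19 of them (40.4%, against 39.0% of all genes), 16 with a promoter peak (34.0%, 22.2% to 48.3%, against 24.2%). There were 0.447 peaks per gene of the family, with 1.11 peaks per gene among the 19. Each of the 16 promoter peaks was single-copy, and they lay between 4 bp upstream of the TSS at Slc25a27 and 569 bp downstream at Slc25a21. Slc25a1, the citrate carrier, and Slc25a24, an ATP-magnesium and phosphate carrier, had a further peak beyond 10 kb. The adenine nucleotide carriers Slc25a4 and Slc25a5 and the phosphate carrier Slc25a3, which serve oxidative phosphorylation, had none.

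The nucleotide sugar class is the Slc35 family (27 genes), in which the subfamilies Slc35a to Slc35d include the carriers that bring nucleotide sugars into the Golgi and endoplasmic reticulum for glycosylation. Most members of the subfamilies Slc35e to Slc35g have no settled substrate or carry other solutes. In the whole family 14 genes had a promoter peak, or 51.9% (34.0% to 69.3%), against 24.2% of all genes. Split after the values were seen, Slc35a to Slc35d held 5 of these among 14 genes (35.7%, 16.3% to 61.2%) and Slc35e to Slc35g held 9 among 13 (69.2%, 42.4% to 87.3%), so most of the promoter peaks did not belong to the nucleotide sugar subfamilies. The family had 27 peaks, 1 per gene, of which 15 were promoter peaks and 10 lay beyond 10 kb. Slc35a1, the carrier of CMP-sialic acid, had 1 promoter peak at 359 bp, and Slc35d1, needed for chondroitin sulfate, had 1 at -3 bp. Slc35b3, a carrier of the sulfate donor PAPS, had a promoter peak at 79 bp and 3 multi-copy peaks at -95332, -406467 and -435561 bp. Slc35f5 had a promoter peak at 174 bp and 3 others between 44936 bp upstream and 53261 bp downstream, and Slc35f4 had peaks at 103, -559 and -103052 bp.

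Metal carriers (33 genes) had a peak at 16 genes (48.5%, against 39.0% of all genes), 11 of them with a promoter peak (33.3% of the class, against 24.2%). The zinc carriers divide by direction of transport: Slc30 proteins take zinc out of the cytosol and Slc39 proteins bring it in. Of 10 Slc30 genes, 7 had a peak (70%, 39.7% to 89.2%) and 6 a promoter peak (60%, 31.3% to 83.2%). Of 14 Slc39 genes, 5 had a peak (35.7%, 16.3% to 61.2%) and 2 a promoter peak (14.3%, 4.01% to 39.9%). The intervals of the families overlapped in both measures. Peaks per gene were alike at 0.9 and 0.929, but 6 of 9 Slc30 peaks and 2 of 13 Slc39 peaks were promoter peaks. Slc39a10 alone held 8 of the 13, the most of any solute carrier gene: a promoter peak at 185 bp, 3 peaks between 121034 and 157037 bp downstream and 4 between 144144 and 295908 bp upstream. Its territory, the stretch closer to its TSS than to that of any neighbour, was 1326.9 kb long, against a median of 46.2 kb over all protein-coding genes, and 6 of its 8 peaks were multi-copy. For 2 of the 8 another gene was nearer in GENCODE. Slc30a8, the zinc transporter of insulin granules, had the narrowest solute carrier peak, 269 bp wide at -108338 bp.

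Carriers of inorganic ions (59 genes) had a peak at 26 genes (44.1%, against 39.0% of all genes) and a promoter peak at 16 (27.1%, against 24.2%). The bicarbonate carriers (Slc4) had the most peaks per gene of the families with at least 10 genes, with 14 peaks for 11 genes or 1.27, and 5 of the 14 were promoter peaks. Slc4a4, the electrogenic sodium-bicarbonate cotransporter, had a promoter peak at -148 bp and others at -11986, 19750 and 32139 bp. Slc4a3, the chloride-bicarbonate exchanger of heart and brain, had no promoter peak, and its peak at 168352 bp was the widest of the 246 at 2134 bp. The sodium-proton exchangers (Slc9) had the fewest, with 3 peaks for 14 genes or 0.214, of which 1 belonged to the scaffold gene Slc9a3r2. The anion exchangers (Slc26) had 4 peaks for 11 genes.

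Carriers of organic anions and cations (78 genes) had 51 peaks, the most of any class, at 31 genes (39.7%, against 39.0% of all genes). In this class 13 genes had a promoter peak (16.7%, 10.0% to 26.5%, against 24.2%). Slc22 (25 genes, organic ions and carnitine) had 16 peaks, 4 of them at promoters and 11 beyond 10 kb, and Slco (14 genes, organic anions) had 11 peaks, 2 at promoters and 8 beyond 10 kb. Slc16 (14 genes, monocarboxylates and relatives) had 12 peaks, 5 at promoters, at 9 genes. Slc10a2, the bile acid carrier of ileum, had 5 peaks, all multi-copy, and held the 2 most distant of the 246 at -1532745 and -909246 bp. For 3 of the 5, including both of these, another gene was nearer in GENCODE, namely the predicted gene Gm1840 for the most distant pair, and the territory of Slc10a2 was 389 kb long. Slc22a23 had a promoter peak at 193 bp and multi-copy peaks at -74496, -99128 and -125810 bp. For these multi-copy peaks the nearest GENCODE TSS was that of Gm8223, at 112, 24744 and 51426 bp. Slco3a1 had a promoter peak at 107 bp and 3 multi-copy peaks at -52267, 150459 and -190044 bp, and Slco6d1 had multi-copy peaks at -35485, -54279 and 229978 bp. Slc16a10, an aromatic amino acid carrier, had peaks at 138, -9155 and -12803 bp, the last of which was 2039 bp wide.

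Carriers of amino acids and neurotransmitters (74 genes) had 42 peaks at 29 genes (39.2%, against 39.0% of all genes), with a promoter peak at 17 (23.0%, against 24.2%). Slc6 (21 genes, neurotransmitters, taurine and creatine) had 12 peaks, of which 4 were promoter peaks and 8 lay beyond 10 kb. Slc7 (16 genes, cationic and large neutral amino acids) had 13, of which 5 were promoter peaks, and Slc38 (11 genes, glutamine and other neutral amino acids) had 7, of which 2 were promoter peaks. The genes of this class with at least 3 peaks had no promoter peak: Slc7a11, Slc7a14, Slc6a14 and Slc6a15. Slc7a11, the transport subunit of the cystine-glutamate exchanger, had its nearest peak at -103301 bp, and 3 of its 4 peaks were multi-copy. Slc7a14, Slc6a14 and Slc6a15 had 3 peaks each, every one of them multi-copy.

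Sugar carriers (34 genes) had a peak at 14 genes (41.2%, against 39.0% of all genes). A promoter peak was present at 5 (14.7%, 6.45% to 30.1%), against 24.2% of all genes, which lies inside the interval. The facilitative hexose carriers (Slc2) had 5 peaks for 12 genes and the sodium-coupled carriers (Slc5) had 6 for 13 genes. Since families were kept whole, the class also holds carriers of other solutes. Among them are Slc5a5 and Slc5a6, 2 of the 5 genes with a promoter peak. Slc5a1, the sodium-glucose cotransporter of gut, had a narrow peak of 367 bp at -24726 bp. Carriers of nucleosides, vitamins, choline and lipids (31 genes) had 19 peaks at 14 genes (45.2%, against 39.0% of all genes), and 10 genes had a promoter peak (32.3%, against 24.2%). Slc14a2, the kidney urea transporter, fell in none of the 8 classes and had peaks at 7959, 10017, -100317 and -158398 bp, 283 bp wide at the second and 2038 bp at the third. For 3 of the 4 the nearest GENCODE TSS was that of another gene, but at 237179 bp or more, farther than the listed distance. The peak at -158398 bp lay in a coding exon of Setbp1.

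**Figure D4:**
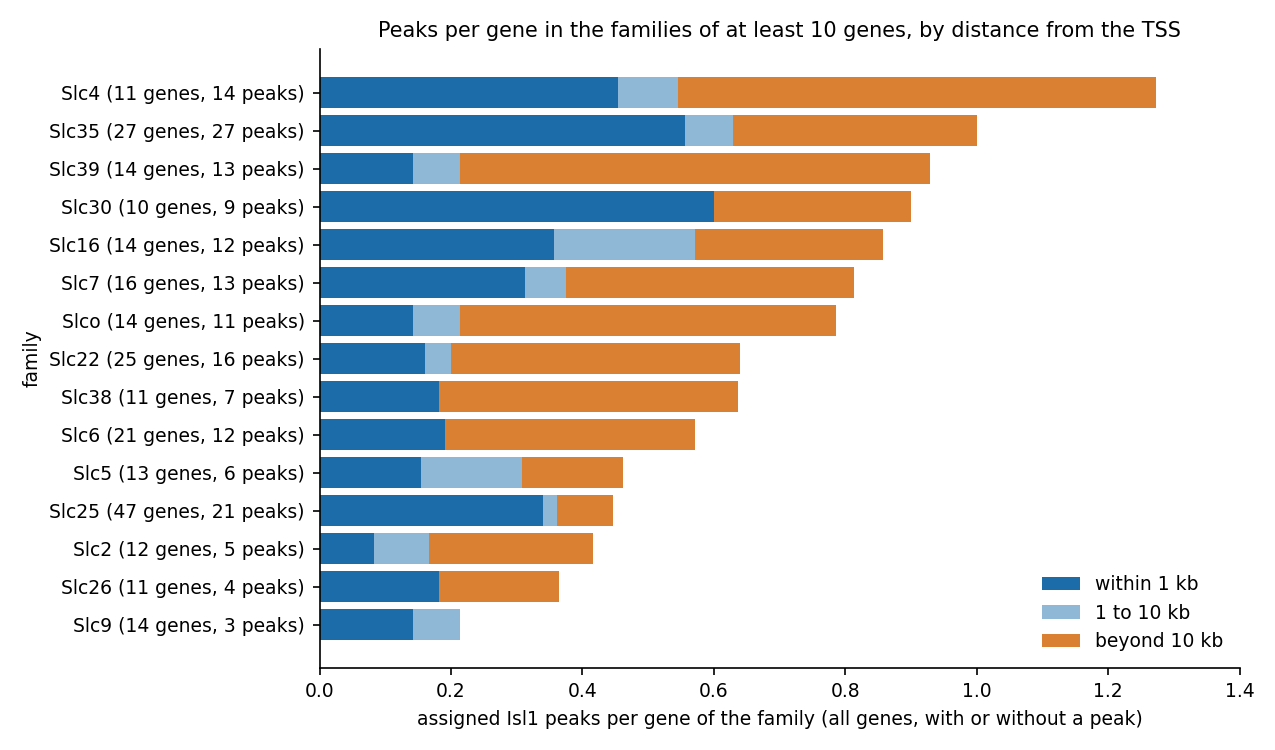
Assigned peaks per gene (horizontal axis, counting genes with and without a peak) in the 15 families of at least 10 genes, split by distance from the TSS. Slc4 stands highest at 1.27 and Slc9 lowest at 0.214, and the blue promoter part is longest in Slc30 and shortest in Slc2.

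Genes with more peaks had more sequence to receive them. The median territory was 47.5 kb for the solute carrier genes without a peak, 63.2 kb for those with 1, 118 kb for those with 2 and 435 kb for the 16 with at least 3. Since each peak goes to the closest TSS, the number of distal peaks per gene and the length of its territory cannot be told apart here. Genes with a promoter peak had a median territory of 63.2 kb, and those whose peaks all lay beyond 10 kb one of 165 kb.

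Transporters of heart ion exchange had a peak at 6 of 8 genes (75%, 40.9% to 92.9%), against 39.0% of all genes, and 4 had a promoter peak (50%, 21.5% to 78.5%), against 24.2%, which lies inside the interval. The list was drawn up with earlier results of these data known, and 8 of its 13 peaks were multi-copy. Besides exchangers it holds cotransporters, and the 4 promoter peaks were those of the cotransporters Slc4a4, Slc12a2, Slc20a1 and Slc20a2. The territories of Slc8a1 and Slc4a3 were 989 and 999 kb long, against a median of 46.2 kb over all protein-coding genes. Those of Slc4a4, Slc12a2, Slc20a1 and Slc20a2 were 417, 323, 84.0 and 32.8 kb. Slc20a1 and Slc20a2, which take up phosphate with sodium, had 1 promoter peak each, at 40 and 81 bp. Slc12a2, the sodium-potassium-chloride cotransporter, had a promoter peak at 148 bp, 1776 bp wide, and a multi-copy peak at -85814 bp. Slc4a4 had the 4 peaks given above. Slc8a1 had 3 peaks at 21733, 54121 and -145912 bp, all multi-copy, of which the first and second lay upstream of the GENCODE TSS at -67047 and -34659 bp, and Slc4a3 had 2, at 68945 and 168352 bp, also multi-copy, so neither kept a peak at single-copy sequence. The mitochondrial sodium-calcium exchanger Slc8b1 had no peak.

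Of 18 transporters of heart fuel and energy, 9 had a peak (50%, 29.0% to 71.0%), against 39.0% of all genes, and 5 a promoter peak (27.8%), against 24.2%. Both background shares lay inside the intervals. The promoter peaks were those of the lactate carriers Slc16a1 (122 bp) and Slc16a3 (-18 bp), the fatty acid carrier Slc27a4 (146 bp), the hexose carrier Slc2a8 (191 bp) and the taurine carrier Slc6a6 (102 bp). The other 4 had distal peaks only: Slc27a1, a fatty acid carrier of heart and muscle, at 10703 bp in a coding exon, Slc27a6 at -54263 bp, the lactate and pyruvate carrier Slc16a7 at -307545 bp, and the hexose carrier Slc2a12 at 10877 and -23465 bp. Of the list's 10 peaks 4 were multi-copy, those of Slc27a6, Slc16a7 and Slc2a12, so these genes kept no peak at single-copy sequence. The territory of Slc16a7 was 1361 kb long. The glucose carriers Slc2a1, Slc2a3 and Slc2a4, the carnitine carrier Slc22a5, the acylcarnitine carrier Slc25a20 and the creatine carrier Slc6a8 had no peak in this list, besides the 3 mitochondrial carriers named above.

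Amino acid uptake transporters of dividing cells had a peak at 7 of 12 genes (58.3%, 32.0% to 80.7%), against 39.0% of all genes, and a promoter peak at 5 (41.7%, 19.3% to 68.0%), against 24.2%. Promoter peaks were found at Slc7a1 (156 bp), Slc7a5 (288 bp), Slc7a6 (152 bp), Slc38a1 (258 bp) and Slc38a2 (251 bp), which carry cationic amino acids, large neutral amino acids or glutamine. Slc38a9, the lysosomal arginine sensor, had 1 peak at 69478 bp, and Slc7a11 had the 4 distal peaks given above. Of the list's 11 peaks 5 were multi-copy, among them that of Slc38a9. Slc3a2, the common heavy chain of the Slc7 exchangers, had no peak, nor had Slc1a4, Slc1a5, Slc7a3 and Slc43a2.

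Of 9 transporters known from red blood cell precursors, 4 had a peak (44.4%, 18.9% to 73.3%), against 39.0% of all genes with any peak and 24.2% with a promoter peak. Each was a single-copy promoter peak: Slc25a37, the mitochondrial iron importer mitoferrin, at 502 bp, Slc25a39 at 82 bp, the heme transporter Slc48a1 at 160 bp and the iron transporter Slc11a2 at 168 bp. The band 3 anion exchanger Slc4a1, the iron exporter Slc40a1, Slc14a1, Slc25a38 and Slc43a1 had none.

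Of 21 neuronal transporters, 10 had a peak (47.6%, 28.3% to 67.6%), against 39.0% of all genes, and 7 had a promoter peak (33.3%, 17.2% to 54.6%), against 24.2%. The latter were the glutamate carriers Slc1a1 (35 bp) and Slc1a6 (-40 bp), the glycine carrier Slc6a9 (655 bp), the GABA carrier Slc6a11 (106 bp) and the vesicular carriers Slc17a7 (136 bp), Slc18a3 (9 bp) and Slc32a1 (292 bp) of glutamate, acetylcholine and GABA. The Slc18a3 peak lay in an intron of Chat, the acetylcholine synthesis gene, whose nearest GENCODE TSS was 1068 bp away. The glial glutamate carrier Slc1a2 and the potassium-chloride cotransporter Slc12a5 had peaks at -49473 and -6942 bp. Of the list's 12 peaks 4 were multi-copy, among them that of Slc1a2. The dopamine, noradrenaline and serotonin carriers Slc6a3, Slc6a2 and Slc6a4 were among the 11 without a peak.

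Transporters known from kidney, liver and gut had a peak at 8 of 26 genes (30.8%, 16.5% to 50.0%), against 39.0% of all genes, and 0 of the 26 had a promoter peak, against 24.2%. The list was drawn up with earlier results of these data known, and other carriers that also work in kidney or liver, such as Slc4a4 (-148 bp) and Slc27a2 (230 bp), had promoter peaks, so the 0 describes these 26 genes alone. Their 15 peaks, 10 of them multi-copy, included the 5 of Slc10a2 and those of Slc13a1 (98851 and -117439 bp), Slc22a7 (-8784 bp), Slc22a12 (11461 and 45132 bp), Slc5a1 (-24726 bp), Slc7a9 (3605 bp) and Slco1b2 (40414 bp). Both Slc22a12 peaks lay inside Nrxn2 and the Slc22a7 peak inside Ttbk1. Without a peak were, among others, the glucose carriers Slc2a2 and Slc5a2, the salt carriers Slc12a1 and Slc12a3 and the phosphate carriers Slc34a1 and Slc34a3. These 6 lists overlap the classes above, and their counts are descriptions without a test.

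**Figure D5:**
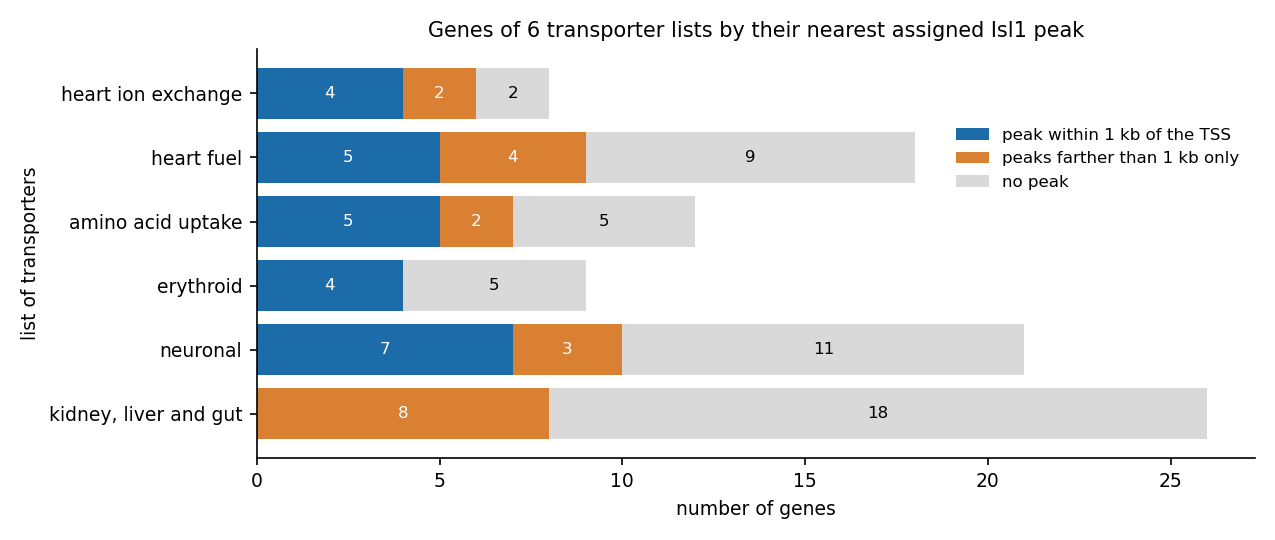
Number of genes (horizontal axis) in each of 6 transporter lists with a peak within 1 kb of the TSS (blue), with farther peaks only (orange) or without a peak (grey). The kidney, liver and gut list has 0 genes in blue out of 26, whereas all 4 erythroid genes with a peak are in blue.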

How the data were processed

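Isl1 ChIP-Seq was analysed from 1 list of peaks common to both replicates, as deposited by the authors. According to the study's methods and the labels, Bowtie2 aligned the reads to mm9 and Picard 1.136 removed duplicates. MACS14 called the peaks, those in blacklisted regions were removed, bedtools 2.15 kept what the replicates had in common, and HOMER assigned each peak to its closest TSS. The deposited columns hold positions and signed distances to the TSS in bp, with no score or depth. The ChIP signal of each replicate was not analysed here.

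Identical lines were counted once (14165 lines, 14082 peaks). No peak ran past a chromosome end of NCBIM37, the mm9 sequence. Context and nearest TSS came from GENCODE vM1 of that assembly, with older gene names replaced through the synonyms of a RefSeq gene table (GRCm38), whose genes with a curated mRNA served as the set of protein-coding genes behind the background shares. No coordinates of that build were used, and its promoter sequences served only for the strings counted before the TSS. The gene table matched 165 of 165 solute carrier symbols. The listed distance equalled the GENCODE distance within 2 bp for 96 of 246 peaks, so the authors used another annotation, and starts are uncertain by 1 bp. Copy numbers of 31-mers on both strands were counted in the central 200 bp by a script that was tested on simulated data. Shares carry 95% Wilson intervals (scipy 1.17.1, Python 3.11.15). No test was made, because the list gives no value per replicate.

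Genes named in the text were those with at least 3 peaks, those of the 3 widest, 3 narrowest and 3 most distant peaks, members of 6 function lists, families with at least 10 genes by their counts, and for sequence the heart-list peaks nearest the TSS and the peak of highest copy number. A few genes and 1 sequence that this rule names are not reported here. Every other gene named, such as Slc25a1, Slc35a1 or Slc39a13, and the sequences of Slc8a1 and Slc30a5 were chosen after their values were seen. The members, classes and lists were chosen with earlier results of these data known. Alternatives were repeated lines, a minimum width of 500 bp, merging within 1000 bp, single-copy peaks, the nearest GENCODE TSS, limits of 2 and 5 kb, added symbols and 75-mers.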

Additional observations from a re-analysis of the deposited data

How the results depend on the processing

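Of 146 values recomputed for 25 results, 131 stayed within the interval of the reported value or within 1.5 times the reported count. Keeping repeated lines, dropping peaks narrower than 500 bp, joining neighbours within 1000 bp, assignment to the closest GENCODE TSS and distance limits of 2 or 5 kb moved 0 values past these bounds. The 25 values with repeated lines kept could not move, since none of the 246 peaks came from a repeated line. Nor could the 10 values with added symbols, since no symbol needed to be added to the gene table. Joining neighbours left 245 of the 246 peaks. Single-copy peaks alone moved 14 of 24 values, by construction through the loss of multi-copy peaks: 139 peaks remained, 32.6% of solute carrier genes had a peak, 72.7% of peaks lay within 1 kb and 15.8% beyond 10 kb, and genes with a peak had 1.09 peaks each. Genes with a peak then made up 27.0% of the amino acid and neurotransmitter class and 25.6% of the organic anion and cation class. Peaks within 1 kb made up 85% for amino acids and neurotransmitters, 72.7% for inorganic ions, 54.2% for organic anions and cations, 73.3% for metals, 83.3% for nucleosides, vitamins, choline and lipids, 94.1% for mitochondrial carriers and 81.2% for nucleotide sugars. With 75-mers in place of 31-mers the multi-copy share was 24.0%. Leaving out each replicate was not possible, since the list joins both replicates without a value for each. No paired analysis was possible because the result comes from no test and the list carries no replicate numbers. Without depth or peak height, genes without a peak cannot be told from genes bound below the caller's threshold in either replicate.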
